A study of Mus musculus with 6 samples.

Results

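The genes Grem1 and Fmn1 lie side by side on mouse chromosome 2, and the chromatin around them was examined peak by peak in distal forelimb buds with and without HOX13 function. The measurement was ATAC-seq, in which the transposase Tn5 inserts sequencing adapters into open chromatin. Each library came from 50000 cells of the left and right forelimb buds of 1 embryo at embryonic stage E11.5, on a mixed C57Bl/6 x 129 background. There were 2 wild-type libraries and 2 Hox13-/- libraries, the latter from embryos that carry the germline null alleles Hoxa13Str and Hoxd13lacZ, so that loss of both genes was not confined to the limb. The authors merged the peaks of these 4 libraries into 61954 regions. A region counted as a member of the domain when its midpoint lay inside Grem1 or Fmn1, or within 250 kb of the Grem1 start site, by the GENCODE annotation of the mm10 genome. This rule gave 25 of the 61954 regions, of which 19 lay in Fmn1, 2 lay in Grem1 and 4 lay upstream of the Grem1 start.

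GREM1 is a secreted protein that binds bone morphogenetic proteins (BMPs) and keeps them from their receptors. In the limb bud it links Sonic hedgehog from the posterior mesenchyme to fibroblast growth factors from the apical ridge, and the feedback loop that results sustains limb outgrowth and digit formation. FMN1 is a formin, a protein that nucleates and elongates actin filaments. Fmn1 is also known as a host of enhancers that act on Grem1 in the limb, and rearrangements within the 3′ part of Fmn1 cause limb deformity through loss of Grem1 expression. HOXA13 and HOXD13 are the homeodomain factors of the distal limb, which gives rise to the digits.

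In mm10, Fmn1 spans chr2:113327736-113716767 on the plus strand and Grem1 spans chr2:113746164-113758646 on the minus strand, with 29.4 kb between their ends. The genes thus converge, and all of Fmn1 lies downstream of Grem1. Positions are given below in kb from the Grem1 start, with a plus sign for downstream, towards Fmn1, and a minus sign for upstream. The upstream side holds Scg5, which encodes a chaperone of neuroendocrine secretion, and Arhgap11a, which encodes a GTPase-activating protein. The stretch between the ends of Fmn1 and Grem1 held no peak. Grem1 has 2 exons and 1 intron of 8335 bp. The longest Fmn1 transcript has 18 introns, and the midpoints of the 19 members in Fmn1 all lay in one of them.

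The sequences of 4 of the 10 members that passed the test are shown, chosen for their difference, signal or motif matches. They are 300-bp stretches, or the whole of a shorter peak, from the plus strand of mm10, and capitals mark matches to a HOX13-like motif, CNATAAA on either strand. Each stretch was placed within its peak to hold the most matches, so it need not be centred on the peak. The first is from the peak with the largest rise in Hox13-/-, the second is the single peak that fell, the third is from the changed peak with the highest signal in Hox13-/-, and the fourth is from the peak with the most motif matches.
+261 kb peak, chr2:113497896-113498195: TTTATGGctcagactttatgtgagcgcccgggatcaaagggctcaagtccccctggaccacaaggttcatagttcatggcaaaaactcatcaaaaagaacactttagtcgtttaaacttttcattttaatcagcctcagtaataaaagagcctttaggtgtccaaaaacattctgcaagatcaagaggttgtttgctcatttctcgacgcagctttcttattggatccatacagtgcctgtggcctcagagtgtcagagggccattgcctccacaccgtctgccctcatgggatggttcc
+140 kb peak, chr2:113619038-113619149: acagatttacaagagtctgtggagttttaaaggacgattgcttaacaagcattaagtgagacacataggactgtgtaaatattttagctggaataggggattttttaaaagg
+65.4 kb peak, chr2:113693082-113693381: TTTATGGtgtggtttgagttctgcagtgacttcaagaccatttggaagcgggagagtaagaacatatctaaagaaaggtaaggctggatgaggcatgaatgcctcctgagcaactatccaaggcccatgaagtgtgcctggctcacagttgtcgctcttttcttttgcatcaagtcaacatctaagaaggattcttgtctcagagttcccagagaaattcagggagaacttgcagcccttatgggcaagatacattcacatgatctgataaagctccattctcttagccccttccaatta
+118 kb peak, chr2:113640828-113641127: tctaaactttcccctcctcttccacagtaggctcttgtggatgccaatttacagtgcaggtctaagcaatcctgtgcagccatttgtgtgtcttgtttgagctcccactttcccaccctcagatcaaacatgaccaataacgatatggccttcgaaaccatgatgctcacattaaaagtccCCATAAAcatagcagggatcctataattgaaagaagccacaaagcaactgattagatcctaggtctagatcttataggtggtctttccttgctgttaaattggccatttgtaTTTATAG

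The 250 bases upstream of the Grem1 start in RefSeq are shown for GRCm38.p6, on the minus strand at chr2:113758649-113758898, so that the gene reads from left to right. Capitals mark a match to CCACCCA, the core of the site bound by the GLI factors of the hedgehog pathway. The core was present in 8.11% of the 32851 promoter windows in the same RefSeq table.
Grem1 upstream, chr2:113758649-113758898: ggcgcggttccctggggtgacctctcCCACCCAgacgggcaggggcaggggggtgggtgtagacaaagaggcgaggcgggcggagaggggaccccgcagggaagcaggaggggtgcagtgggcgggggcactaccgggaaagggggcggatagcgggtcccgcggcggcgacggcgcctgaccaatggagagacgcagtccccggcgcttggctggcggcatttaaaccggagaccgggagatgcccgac

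Accessibility of the domain was on balance higher in Hox13-/-, and the rises had their midpoints in introns of Fmn1, Grem1 and Scg5. None was at a gene start, and of all 7040 higher peaks 6731 likewise lay over 1 kb from any gene start. Of the 25 members, 9 had higher signal in Hox13-/- (limma, adjusted p under 0.05 by Benjamini-Hochberg over all 61954 peaks), which is 36% of the members against 11.4% of all peaks tested. Of these 9, 4 had been called as peaks in the Hox13-/- libraries only, and entered the merged set through them. A single member was lower, which is 4% against 8.31% of all peaks. The other 15 did not pass the test, so that 40% of the members changed in either direction against 19.7% of all peaks. A rise of over 1.5-fold was found at 7 members, all of them in Fmn1, which is 28% against 3.33% of all peaks. A fall of that size was found at 0 members and at 1.56% of all peaks. No member changed by over 2-fold, and 0.313% of all peaks rose and 0.224% fell by that much. These folds are read from shrunken values, so they are not at the 2-fold threshold of the study, which was set on DESeq2 fold changes. The member differences (Hox13-/- minus wild type, on the log2 scale) ran from −0.45 to 0.87 with a median of 0.28, whereas the median over all peaks was −0.01. Members that entered the merged set through Hox13-/- peak lists alone count in this member median.

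**Figure D1:**
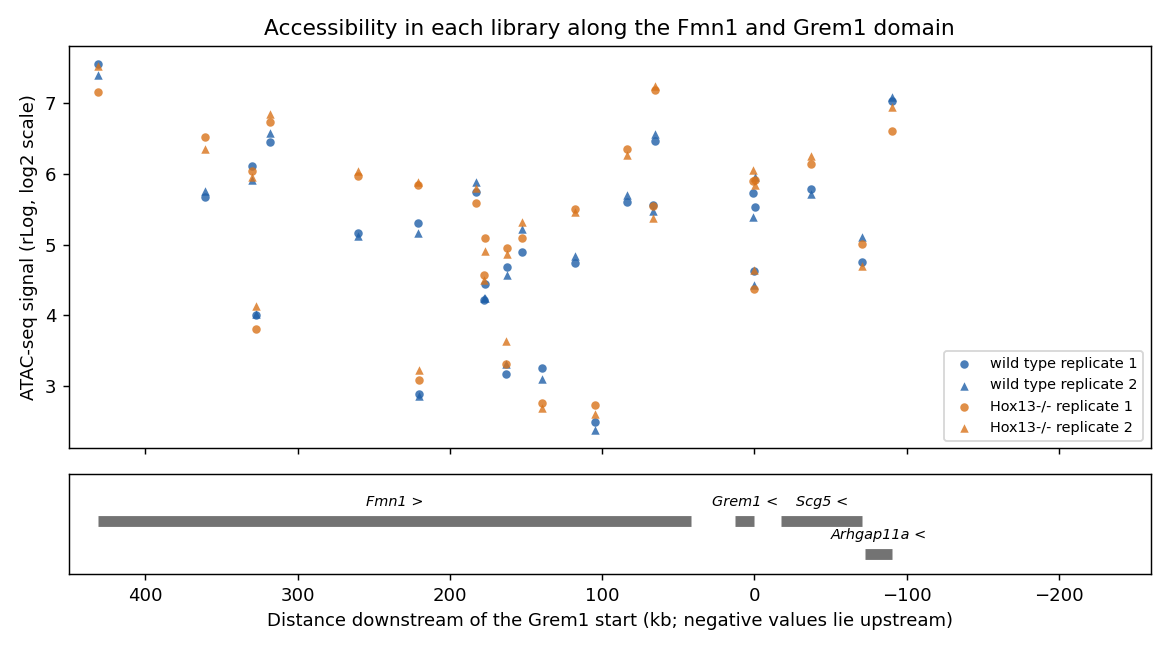
ATAC-seq signal (regularized log, log2 scale, vertical axis) of each of the 4 libraries at the domain's peaks and the Fmn1 promoter, against the distance in kb downstream of the Grem1 start, with the genes drawn below. Both Hox13-/- libraries lay above both wild-type libraries at 15 of the 25 members.

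The values are regularized log (rLog) values, which DESeq2 scales for library size, shrinks and puts on a log2 scale. Shrinkage understates differences, and each fold given here is the ratio of rLog values taken off the log scale. The 2 replicates of a genotype were close over all peaks (Pearson r = 0.993 over peaks in both wild type and Hox13-/-), and the correlations between genotypes were 0.979 to 0.980. Within the domain, replicates differed by a median of 0.12 in both genotypes, and by at most 0.43 in wild type and 0.33 in Hox13-/-. The median over the 25 members was 5.16 and 5.17 in wild type, against 5.54 and 5.46 in Hox13-/-, so the genotypes did not overlap. Some members entered the merged set through Hox13-/- peak lists only, 6 through both, 2 through replicate 2 and 1 through replicate 1. Through wild-type lists only, 1 member entered. The medians therefore partly reflect how the set was formed and are not separate support for a rise of the whole domain. Both Hox13-/- libraries were above both wild-type libraries at 15 members, which is 60% against 29.7% of all peaks, and below both at 2 members, which is 8% against 29.6%. With 2 libraries against 2, an exact permutation test of a single peak cannot give a two-sided p below 0.333, and the limma p-values rest on a spread shared between peaks. Bulk signal cannot tell fewer cells with a site open from less opening in each cell.

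The dissected tissue was checked at the promoters of marker genes. A promoter peak was present at 4 of 7 limb mesenchyme markers, Prrx1, Twist1, Msx1 and Lhx9, and at both distal markers, Hoxa13 and Hoxd13. The mesenchyme markers Prrx2, Tbx5 and Lhx2 had none, so a missing promoter peak does not show that a cell type was absent. Twist1 was lower in Hox13-/- by 0.40 (limma, adjusted p = 0.014), and the other 3 mesenchyme markers with a peak were not called. Of the 3 proximal limb markers, Meis1 (difference −0.07) and Hoxa11 (0.15) had a promoter peak, and neither was called. Meis2 had none. Promoter peaks were found at 0 of 2 hindlimb, 0 of 5 blood and 0 of 3 glial and neural crest markers, and at 1 of 5 ectoderm, 1 of 5 muscle precursor and 2 of 4 endothelial markers. None of these 4 promoter peaks was called, and their differences ran from −0.15 to 0.05. The part of cell composition in the differences of the domain was not tested. Signal at the Hoxa13 and Hoxd13 promoters does not measure the null alleles.

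The Grem1 promoter showed no detectable difference. Its peak, chr2:113758519-113759069, covers the start site, and the RefSeq stretch printed above lies within it. The signal was 5.53 and 5.96 in wild type, against 5.92 and 5.85 in Hox13-/-, so the libraries of the genotypes overlapped. The difference was 0.14 with a 95% interval of −0.12 to 0.39 (limma, adjusted p = 0.48). It held 1 GLI core and no HOX13-like match, and its GC content of 67.9% was the highest in the domain. Leaving out wild-type replicate 1 turned the sign of the difference, to −0.076.

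The other peaks in Grem1 sit in its intron just downstream of the promoter. At the +1.08 kb peak, chr2:113757294-113757838, the signal was 5.73 and 5.40 in wild type, against 5.89 and 6.05 in Hox13-/-, and the genotypes did not overlap. The peak was 1.33-fold higher in Hox13-/- (difference 0.41, SE 0.13, limma, adjusted p = 0.013). This call depended on single libraries, since the difference was 0.24 (adjusted p = 0.32) without wild-type replicate 2 and 0.33 (adjusted p = 0.17) without Hox13-/- replicate 2. The neighbouring +0.493 kb peak, chr2:113758031-113758276, had 4.64 and 4.43 in wild type, against 4.38 and 4.64 in Hox13-/-, which overlapped (difference −0.02, interval −0.28 to 0.23, adjusted p = 0.92). The signal of this neighbour minus that of the +1.08 kb peak was −1.10 and −0.97 in wild type, against −1.52 and −1.41 in Hox13-/-, so the gap was wider in both Hox13-/- libraries.

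The first peak from Grem1 into Fmn1 was the +65.4 kb peak, after 63.6 kb without any peak. At chr2:113692838-113693691 the signal was 6.46 and 6.56 in wild type, against 7.18 and 7.25 in Hox13-/-, the highest mean of any member in Hox13-/-. It was 1.63-fold higher (difference 0.70, SE 0.13, limma, adjusted p = 1.24e-06). The peak was 854 bp long, the longest of the domain, with its midpoint in intron 17 of Fmn1 and 150 bp of coding exon within it. The +66.6 kb peak, chr2:113691812-113692232, whose midpoint is 1242 bp away in intron 16, had 5.57 and 5.48 in wild type, against 5.54 and 5.37 in Hox13-/-, and the genotypes overlapped (difference −0.07, interval −0.32 to 0.19, adjusted p = 0.76). The first of these peaks exceeded the second by 0.90 and 1.08 in wild type, against 1.64 and 1.87 in Hox13-/-. The excess was therefore larger in both Hox13-/- libraries than in either wild-type library. Both peaks also lie in 4930533B01Rik, an RNA gene annotated on the strand opposite to Fmn1, and ATAC-seq does not tell the strands apart.

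Moving further into Fmn1, the +83.8 kb and +118 kb peaks, both in intron 15, rose. The +83.8 kb peak, chr2:113674636-113675056, had 5.60 and 5.70 in wild type, against 6.35 and 6.26 in Hox13-/- (difference 0.66, SE 0.13, limma, adjusted p = 1.16e-05). The +118 kb peak, chr2:113640774-113641150, had 4.74 and 4.84 in wild type, against 5.50 and 5.46 in Hox13-/- (difference 0.69, SE 0.13, adjusted p = 4.02e-06). Neither peak's genotypes overlapped. The +118 kb peak is the one printed above with 2 HOX13-like matches, and of the peaks within 10% of its length 22.3% held at least 1. Between them lay the +105 kb peak, a weak site of 108 bp with 2.49 and 2.39 in wild type, against 2.73 and 2.61 in Hox13-/-, which did not pass the test (difference 0.23, adjusted p = 0.098).

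The single member that fell was the +140 kb peak, chr2:113619038-113619149, in intron 14. Its signal was 3.26 and 3.10 in wild type, against 2.77 and 2.69 in Hox13-/-, and the genotypes did not overlap. It was 1.37-fold lower in Hox13-/- (difference −0.45, SE 0.11, limma, adjusted p = 7.66e-04). At 112 bp and a GC content of 34.8% it was among the shortest members and had the lowest GC content, and it held no HOX13-like match, which 7.55% of the peaks of similar length did. After a correction for GC content the difference was −0.30 and no longer passed the test (adjusted p = 0.085).

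The next 3 members, in introns 14 and 12, did not pass the test. The +153 kb peak had a difference of 0.15 and overlapping genotypes, and the +163 kb pair, 272 bp apart from midpoint to midpoint, had differences of 0.29 and 0.24. Both Hox13-/- libraries were at or above the wild-type libraries in the pair, yet neither peak passed the test (limma, adjusted p = 0.10 and 0.15).

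Intron 8 held a pair of peaks with midpoints 527 bp apart, of which 1 rose. The +176.9 kb peak, chr2:113581606-113581970, had 4.45 and 4.25 in wild type, against 5.10 and 4.91 in Hox13-/- and was 1.57-fold higher (difference 0.65, SE 0.13, limma, adjusted p = 1.60e-05). Its neighbour at +177.4 kb, chr2:113581138-113581385, had 4.22 and 4.25 in wild type, against 4.57 and 4.50 in Hox13-/-, and its difference of 0.30 did not pass the test (adjusted p = 0.089). The stronger peak exceeded its neighbour by 0.53 and 0.41 in Hox13-/-, more than in either wild-type library. The neighbour did pass after the GC correction (difference 0.39, adjusted p = 0.019). In the same intron the +183 kb peak, chr2:113575813-113576338, was among the highest of the domain in wild type, with 5.75 and 5.88, and had 5.59 and 5.80 in Hox13-/-. Its genotypes overlapped (difference −0.13, interval −0.38 to 0.13, adjusted p = 0.53).

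Intron 7 held another such pair. The +221 kb peak, chr2:113537791-113538238, had 5.30 and 5.17 in wild type, against 5.85 and 5.89 in Hox13-/- and was 1.55-fold higher (difference 0.63, SE 0.13, limma, adjusted p = 3.20e-05). The smaller +220.1 kb peak, 193 bp from its edge, had 2.88 and 2.86 in wild type, against 3.08 and 3.23 in Hox13-/-. Its genotypes did not overlap, but the difference of 0.29 fell just short of the threshold (adjusted p = 0.052). Its signal minus that of the +221 kb peak was −2.42 and −2.31 in wild type, against −2.76 and −2.65 in Hox13-/-.

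The largest difference of the domain was at the +261 kb peak, chr2:113497764-113498358, in intron 5. Its signal was 5.16 and 5.12 in wild type, against 5.97 and 6.05 in Hox13-/-, with replicates close and genotypes far apart. The peak was 1.83-fold higher in Hox13-/- (difference 0.87, SE 0.13, 95% interval 0.61 to 1.13, limma, adjusted p = 2.07e-09). The authors' peak caller had found it in both Hox13-/- libraries but in neither of the wild-type ones. Its sequence, printed above, held 1 HOX13-like match, as 23.2% of the peaks of similar length did at least once.

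**Figure D2:**
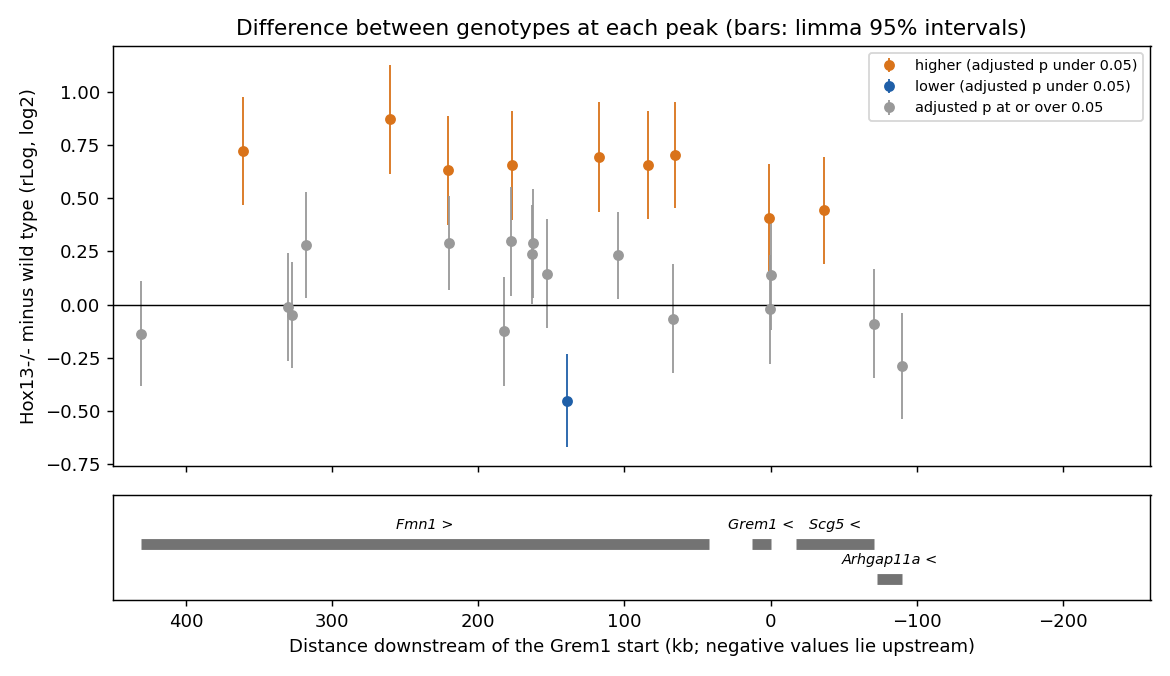
Difference between genotypes (Hox13-/- minus wild type, log2, vertical axis) of each peak against the distance in kb downstream of the Grem1 start, with limma 95% intervals as bars and the genes below. The 9 members that were higher lie at differences of 0.41 to 0.87, and the 1 that was lower lies at −0.45.

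The 5′ part of Fmn1 held a cluster of peaks with small differences and a lone one that rose. The +318 kb peak, chr2:113440325-113441027, lies 388 bp from the start of a shorter Fmn1 transcript, over exons of the antisense RNA genes Gm13963 and Gm13966. It had 6.45 and 6.58 in wild type, against 6.73 and 6.85 in Hox13-/-, and although the genotypes did not overlap the difference of 0.28 did not pass the test (limma, adjusted p = 0.11). The +330.1 kb peak, chr2:113428310-113428748, had 6.11 and 5.91 in wild type, against 6.04 and 5.96 in Hox13-/- (difference −0.01, interval −0.27 to 0.24, adjusted p = 0.96). The +328 kb peak beside it, chr2:113431022-113431151, had 4.01 and 4.02 in wild type, against 3.81 and 4.13 in Hox13-/- (difference −0.05, adjusted p = 0.83). The genotypes overlapped at both.

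The +361 kb peak, chr2:113397428-113397956, is the member nearest to the Fmn1 start and lies in intron 2, over Gm13963. Its signal was 5.67 and 5.76 in wild type, against 6.52 and 6.36 in Hox13-/-, with no overlap. It was 1.65-fold higher in Hox13-/- (difference 0.72, SE 0.13, limma, adjusted p = 9.95e-07). Like the +261 kb peak, it had been called as a peak only in the Hox13-/- libraries, in both of them, and it held 1 HOX13-like match.

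The Fmn1 promoter did not differ detectably either. Its peak, chr2:113327255-113327961, had a midpoint 128 bp outside the gene and so was no member. The signal was 7.55 and 7.39 in wild type, against 7.15 and 7.52 in Hox13-/-, and the genotypes overlapped (difference −0.14, interval −0.38 to 0.11, limma, adjusted p = 0.47). The sign turned, to 0.047, without Hox13-/- replicate 1. Relative to its length this was the most accessible peak of those described, with a wild-type mean of 7.97 on the log2 scale per kb, against 6.60 at the Grem1 promoter.

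Upstream of Grem1, 1 of 4 members rose. The −36.8 kb peak, chr2:113795210-113795657, in an intron of Scg5, had 5.78 and 5.72 in wild type, against 6.14 and 6.25 in Hox13-/-, with no overlap, and was 1.36-fold higher (difference 0.44, SE 0.13, limma, adjusted p = 0.0060). Without wild-type replicate 2 (adjusted p = 0.055) or Hox13-/- replicate 2 (adjusted p = 0.095) it no longer passed the test, at differences of 0.41 and 0.39. The peaks at the starts of Scg5 and Arhgap11a were not called. The Arhgap11a peak, chr2:113848430-113849084, had the highest wild-type mean of the members, with 7.04 and 7.09 in wild type, against 6.61 and 6.94 in Hox13-/- (difference −0.29, adjusted p = 0.092), and without Hox13-/- replicate 2 it passed as lower (difference −0.45, adjusted p = 0.039). The Scg5 start peak had a difference of −0.09 and overlapping genotypes.

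Beyond Arhgap11a no peak was found over the remaining 160 kb of the window. The Arhgap11a peak is the member nearest to the window's upstream edge. The first peak outside that edge lay 11.1 kb past it, at chr2:114019663-114019771, with 2.59 and 2.83 in wild type, against 2.41 and 2.46 in Hox13-/-. This weak peak passed the test as lower in Hox13-/- (difference −0.27, limma, adjusted p = 0.0486). On the Fmn1 side the limit is the gene's own start, and the promoter peak described above was the first outside it.

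**Figure D3:**
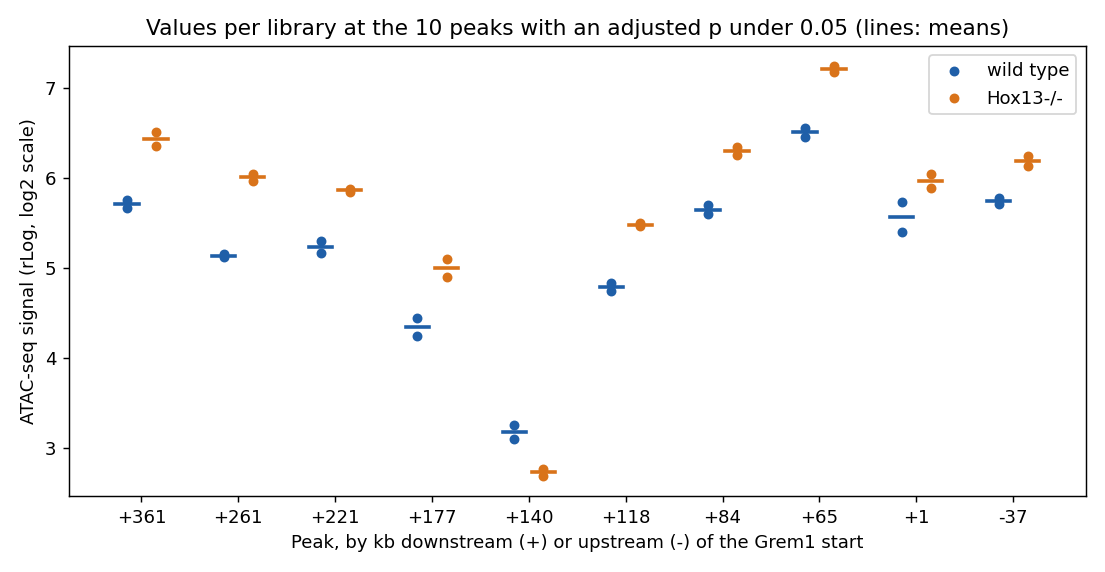
Signal (rLog, log2 scale, vertical axis) in each library (points) with the genotype mean (lines) at the 10 members called higher or lower, by their distance in kb from the Grem1 start. Both Hox13-/- libraries lie above both wild-type libraries at 9 of them and below at the +140 kb peak.

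Of the 19 members in Fmn1, 7 were higher, 1 was lower and 11 were not called, with a median difference of 0.29. The 7 lay between +65.4 kb and +361 kb, in introns 2, 5, 7, 8, 15 and 17, and 3 of them stood within 1.5 kb of a member that did not pass the test. Members within 1 kb of an annotated gene start, 5 in all, were called in no case. Over all peaks, 6731 of the 7040 higher and 3658 of the 5146 lower ones lay over 1 kb from any gene start. That class held 44398 of the 61954 peaks. Among peaks over 1 kb from any gene start, 9 of 20 members were higher, which is 45% against 15.2% of all such peaks, and 1 was lower, which is 5% against 8.24%. Rises of over 1.5-fold made up 35% of these 20 members against 4.46% of all such peaks.

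Per length, the signal at the Grem1 peaks lay inside the range over the members in Fmn1. The wild-type means per kb, on the log2 scale, were 6.60, 6.56 and 6.44 at the 3 peaks at the 5′ end of Grem1, and ran from 5.44 to 7.20 over the 19 members in Fmn1. In that order the Grem1 promoter stood in place 15 of 26 in wild type and in place 17 of 26 in Hox13-/-. Its wild-type libraries, 6.39 and 6.82 per kb, spanned the means of the +361 kb and +65.4 kb peaks, from which it did not differ beyond its spread. The +83.8 kb peak moved from place 8 to place 2, and the +261 kb peak from place 22 to place 16.

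The authors' peak calls in single libraries, which come from the same reads as the signal, were read as well. A region entered the merged set when the list of any library held it, so these calls are not separate support for the rises. The peak lists of the libraries contributed 15 and 7 of the 25 members in wild type and 20 and 22 in Hox13-/-. Found in both Hox13-/- libraries and in no wild-type library were 6 members, which is 24% against 11.2% of all peaks, and 4 of these 6 were among the 9 that rose. The reverse pattern held for 0 members, against 2.98% of all peaks. In Hox13-/- replicate 2 alone 2 members were found and in Hox13-/- replicate 1 alone 1, and none of them was called. The member that fell was found in wild-type replicate 1 alone. Of the 9 members that rose, all were found in both Hox13-/- libraries and 1 was found in both wild-type libraries, the +83.8 kb peak. Found in all 4 libraries were 5 members, which is 20% against 31.8% of all peaks.

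Matches to the HOX13-like motif, CNATAAA on either strand, occurred in 8 of 25 members, which is 32% against 16.5% of all peaks, and all 8 lay in Fmn1. Longer peaks held a match more often over the whole table, from 7.55% of those near 112 bp to 23.2% of those near 595 bp, and the median length of the members was 421 bp. Of the 9 members that rose, 5 held a match, at +361, +261, +118, +83.8 and +65.4 kb, and of the other 16 members 3 held one. The members that rose were also longer, with a median of 448 bp against 248 bp over those not called. A link between the motif and the rises was not tested. In the central 200 bp, 3 of 25 members held a match, which is 12% against 12.7% of all peaks. The GLI core, CCACCCA, occurred in 2 members, the Grem1 and Scg5 start peaks, which is 8% against 7.93% of all peaks. The full GLI site, GACCACCCA, was matched in no member and in 0.353% of all peaks. A CTCF-like motif was likewise matched in no member and in 5.31% of all peaks. CTCF is the factor that bounds many chromatin loops.

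Across the 25 members, the difference between genotypes was weakly related to other properties of the peaks. Pearson's r was 0.36 with peak length, −0.13 with GC content, 0.11 with the wild-type mean and 0.25 with the distance downstream of Grem1. These peaks share their libraries and the values are descriptive.

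**Figure D4:**
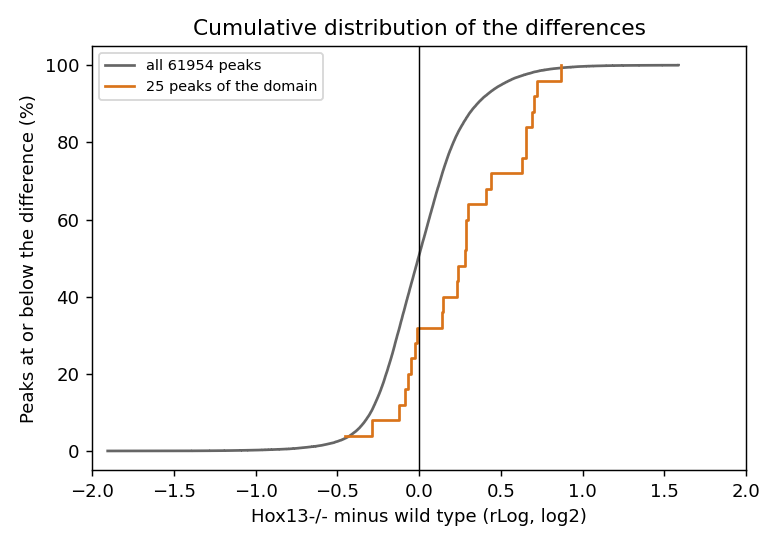
Cumulative share of peaks (percent, vertical axis) by the difference between genotypes (Hox13-/- minus wild type, log2, horizontal axis), for the 25 members and for all 61954 peaks. Above 0 lie 17 of the 25 members, which is 68% against 49.2% of all peaks.

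The other genes of the SHH, GREM1, BMP and FGF loop were read from a list of 32 genes, of which 31 had at least 1 peak in the gene or within 5 kb of its start, and Fgf4 had none. Of their 314 peaks, 33 were higher and 30 were lower in Hox13-/- (limma, adjusted p under 0.05), with a median difference of −0.02. This is 10.5% higher against 11.4% of all peaks, and 9.55% lower against 8.31%. The counts moved with single libraries, to 19 higher without wild-type replicate 1 and 21 higher without either Hox13-/- replicate, and to 16 lower without wild-type replicate 2 or Hox13-/- replicate 1 and 19 lower without Hox13-/- replicate 2. Median centring gave 46 lower. Fgfr2, a receptor for fibroblast growth factors, held 128 of these peaks, spread over 2.96 Mb by the span annotated for the gene. Without Fgfr2, 13 of 186 peaks were higher and 21 were lower. The domain of Grem1 and Fmn1 had 9 higher and 1 lower of 25.

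Among the ligands and BMP antagonists, 1 of 42 peaks was higher and 2 were lower, where 11.4% of all peaks were higher and 8.31% lower. The genes named here and below were chosen after their values were seen. The single peak of Shh, which encodes the hedgehog ligand of the posterior limb bud, had 3.93 and 3.81 in wild type, against 4.53 and 4.50 in Hox13-/- and rose by 0.65. At Bmp4 1 of 7 peaks fell, by 0.39, and at Bmp7 1 of 13 peaks fell, by 0.38, and both genes encode ligands that GREM1 binds. The other BMP ligand gene of the list, Bmp2, had 6 peaks, and 0 were called. None of the peaks of the antagonist genes Nog (3 peaks), Chrd (1) and Fst (2) was called.

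Among receptors, 21 of 185 peaks were higher and 16 were lower, and without Fgfr2 1 of 57 was higher and 7 were lower. Beside these and the counts that follow, 11.4% of all peaks were higher and 8.31% were lower. Ptch1, the hedgehog receptor and itself a hedgehog target, had 19 peaks and 0 were called. Bmpr1b, a BMP receptor used in digit cartilage, had 4 of 22 peaks lower and none higher, with the largest difference at −0.60. Among transducers and targets, 11 of 87 peaks were higher and 12 were lower. Gli2 had 5 of 21 peaks higher and none lower, with the largest rise at 1.19. Gli3, which encodes the main hedgehog repressor of the limb, had 4 of 21 higher and 2 lower. Of the BMP transducers and targets, Smad1 had 3 of 8 peaks lower and Id3 had 3 of 5 peaks lower, and neither had a peak that was higher. Smad5 had 1 of 4 peaks higher and 1 lower, Id2 had 2 of 10 lower, Msx1 had 1 of 4 higher and Msx2 had 1 of 2 lower, while Smad4, Smad9 and Id1 had none called.

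The promoter peaks most like those of Grem1 and Fmn1 were found by the Euclidean distance over the 4 library values among 12294 genes with a promoter peak. For Grem1 they were Decr1 (distance 0.084), Slc13a5 (0.093), Stat6 (0.13), Tlr4 (0.15) and Erich6 (0.17). For Fmn1 they were Rpl30 (0.058), Urgcp (0.064), Cfap97 and Snx25, which share 1 peak (0.070), and Zwint (0.095). The distance reads level and difference together over 4 libraries.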

How the data were processed

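ATAC-seq was analysed in 2 wild-type and 2 Hox13-/- libraries of distal forelimb buds. The 2 proximal libraries of the series were not analysed here. According to the study's methods and the submitters' processing notes, the authors aligned reads to mm10 with Bowtie2 2.3.1, called peaks in each library with MACS2 2.1.1.20160309, merged them and quantified the merged peaks with HOMER 4.9.1, and compared the genotypes with DESeq2 through HOMER. Handling of duplicate reads, blacklisted regions and the Tn5 offset is not given in the sources used here. The authors deposited 1 rLog value per library and peak. These are log2 values, adjusted for library size, and are pulled towards the peak's mean, most of all in weak peaks, whose differences are therefore understated. They also deposited 3 columns of their own comparison (log2 fold change, p-value and adjusted p-value), which were not used. The values carry no read numbers, so the depth of each peak is unknown. The SEs and intervals rest on the spread that limma shared between peaks, and do not measure the spread of a peak's own replicates. The SE was 0.13 at the Grem1 promoter, with a wild-type SD of 0.30, and also at the +261 kb peak, with a wild-type SD of 0.026.

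All 61954 peaks were fitted with limma 3.58.1 in R 4.3.3, with genotype as the term and the variance allowed to follow the mean signal. Tests were two-sided with Benjamini-Hochberg adjustment, and a peak was called at an adjusted p under 0.05. The procedure was run on simulated data with independent normal noise and added shifts larger than any member difference. That run does not bear on the recovery of differences as small as those found here. Replicates are single embryos. The replicate numbers are shared between genotypes only as numbers, and no pairing was used. Distances, GC content and motif matches (both strands, exact letters) came from the mm10 genome and GENCODE M21 basic, read with pysam 0.24.0, pandas 2.3.3 and numpy 2.4.6 in Python 3.11.15, and figures were drawn with matplotlib 3.10.9. Coordinates count from 1. Alternatives were median centring, quantile normalization, cyclic loess, no variance trend, the upper 75% or 50% of peaks by signal, a window of 150 kb, other overlap and fold rules, an adjusted p of 0.01, a GC correction, a block for the replicate number, and fits without 1 of the libraries.

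The members, gene lists and motifs were chosen with earlier results of these data known. Described in full were the promoter peaks of both genes, every member that passed the test, the 5 members with the highest wild-type mean, and members within 5 kb of a described peak. The +105 kb peak was described outside this rule, after its values were seen. The promoter peaks most like those of Grem1 and Fmn1 were the 5 nearest genes each, and in the pathway list the genes named were chosen after their values were seen.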

Additional observations from a re-analysis of the deposited data

How the results depend on the processing

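The count of members higher in Hox13-/-, 9, was 0 at over 2-fold and 7 to 11 when each library was left out. The 1 lower member became 0 with the upper 75% or 50% of peaks, which leave it out by its low signal, 0 with the GC correction with or without the replicate block, 0 at over 1.5-fold and 0 at over 2-fold, and 1 to 2 when each library was left out. The cause of the loss under the GC correction was not tested. The median member difference of 0.28 was 0.21 with the GC correction, also with the block, and 0.22 to 0.31 when each library was left out. The replicate numbers did not pair the libraries (correlation of replicate deviations −0.01), and the fit with the replicate block gave 9 higher and 1 lower members, and 32 higher and 30 lower pathway peaks. The count of higher pathway peaks, 33, was 19 with the upper 50% of peaks, 13 without Fgfr2, an alternative chosen after seeing the data, and 19 to 24 when each library was left out. The 30 lower pathway peaks were 46 with median centring and 16 to 26 when each library was left out. The Grem1 promoter difference ran from −0.076 to 0.35 and the Fmn1 promoter difference from −0.32 to 0.047 when each library was left out. Among members near 0, the +330.1 kb peak ran from −0.11 to 0.088, the +328 kb peak from −0.21 to 0.11, the +66.6 kb peak from −0.15 to 0.020 and the +0.493 kb peak from −0.15 to 0.11, the last also at 0.028 with the GC correction with or without the block. The 7 members over 1.5-fold higher were called in every fit that held them. No alternative scaling or correction moved the median of all peaks by more than 0.04.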

Other observations

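The stretches beyond the domain were read for comparison, a choice made after the members' values were seen. In the 1 Mb beyond the Fmn1 side, 19 peaks held 1 higher and 1 lower in Hox13-/- (limma, adjusted p under 0.05), with a median difference of 0.00. In the 1 Mb beyond the window on the Grem1 side, 14 peaks held 2 higher and 2 lower, with a median of −0.04. The Fmn1 side includes the Fmn1 promoter peak. Over 1 kb from any gene start lay 9 of the 19 peaks and 11 of the 14, against 20 of the 25 members. Since rises were more common in that class over all peaks, the flanks are not like for like with the domain. Over chromosome 2, 583 of 4945 peaks were higher and 373 were lower. At an unadjusted p under 0.05, 15 of the 25 members were higher and 2 were lower, which is 60% against 16.9% and 8% against 14.9% of all peaks.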
